A study of Mus musculus with 9 samples.

Results

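The genes Pdzrn4, Rgs7, Itgb6, Lrtm1, Wdr72, Plekhh1 and Rap1gap2 were followed across cell types, ages and genotypes in single-nucleus RNA data from mouse ventricles. They are 7 of the 37840 genes listed in the deposited count tables, each was listed in all 9 libraries, and they were picked by name for being high in control and low in knockout cardiomyocyte nuclei at postnatal day 10. That choice used the values of those nuclei, so the difference between the groups in them is a description: no p is printed for it, and nothing is read from how many of the genes were called. The 9 libraries fell into 3 groups of 3. KO P10 came from mice of genotype ERRalphaKO/ERRgammaKO at postnatal days 9 to 10, control P10 from ERRalphaHet/ERRgammaWT mice of the same stage, and control P6 from ERRalphaHet/ERRgammaWT mice at postnatal day 6. All mice were of strain C57BL6/J. The controls therefore lacked 1 copy of ERRα and were not wild type, and the labels give no knockout at day 6. The labels do not say in which cells the genes were deleted, whether a library was 1 heart, or whether replicate libraries were made from different mice. The p-values below therefore measure the spread between libraries, which may be technical where libraries share mice.

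ERRα and ERRγ, listed as Esrra and Esrrg, are orphan nuclear receptors that bind DNA at extended AGGTCA half-sites and switch on genes of mitochondrial energy metabolism with the coactivators of the PGC-1 family. In the days after birth the heart muscle changes from glucose towards fatty acids as its fuel and builds its adult contractile and conduction machinery. The genes followed here are not enzymes of that programme. Itgb6 encodes the integrin β6 subunit, which pairs with αv to bind and activate latent TGF-β and is best known from epithelia. Lrtm1 encodes a single-pass membrane protein with leucine-rich repeats. Rgs7 encodes a regulator of G protein signalling that shortens the active state of Gi/o proteins and works as a complex with Gβ5. Rap1gap2 encodes a GTPase-activating protein that switches off the small GTPase Rap1. Pdzrn4 encodes a PDZ and RING domain protein of the LNX family of ubiquitin ligases. Plekhh1 encodes a protein with pleckstrin homology, MyTH4 and FERM domains, and Wdr72 a WD-repeat protein known for its role in enamel formation.

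Each of the 7 genes lies on a chromosome of its own (GENCODE vM21 on GRCm38, the assembly that mm10 denotes). All are protein-coding. Pdzrn4 spans chr15:92396881-92771819 on the plus strand, Rgs7 chr1:175059087-175492500 on the minus strand, Itgb6 chr2:60598292-60722643 on the minus strand, and Lrtm1 chr14:29018208-29033645 on the plus strand. Wdr72 spans chr9:74110356-74283308 on the plus strand, Plekhh1 chr12:79029163-79081655 on the plus strand, and Rap1gap2 chr11:74383356-74610915 on the minus strand. Exonic and intronic reads were counted together, so a value covers the whole gene body. Lrtm1 lies inside Cacna2d3, which runs on the opposite strand, and the 3′ end of Plekhh1 overlaps that of Pigh, also on the opposite strand. The use of strand in counting is not given in the sources used here, so reads of Lrtm1 and Cacna2d3 cannot be told apart with certainty. In cardiomyocyte-like nuclei Cacna2d3 itself was listed with 28 UMIs at KO P10, 83 at control P10 and 120 at control P6.

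RefSeq promoter sequences (GRCm38.p6) matched 6 of the 7 genes by symbol, with 11 start sites in all. The 250 bases before each start were searched on both strands for TNAAGGTCA, the extended half-site of the ERR family, for its core AAGGTCA and for the shorter AGGTCA, which the longer motifs contain. The 3 promoters below are shown because they belong to the gene with the largest difference between genotypes (Lrtm1, chr14:29017958-29018207, plus strand), to the gene with the highest CPM at control P10 (Pdzrn4, chr15:92396560-92396809, plus strand, the first of 2 starts) and to the only promoter with a match (Plekhh1, chr12:79028913-79029162, plus strand). Capitals mark AGGTCA.
Lrtm1: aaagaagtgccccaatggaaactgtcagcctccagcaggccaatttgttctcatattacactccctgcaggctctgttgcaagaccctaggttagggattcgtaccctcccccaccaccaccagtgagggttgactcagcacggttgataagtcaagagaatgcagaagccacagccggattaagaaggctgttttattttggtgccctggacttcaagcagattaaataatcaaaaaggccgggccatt
Pdzrn4: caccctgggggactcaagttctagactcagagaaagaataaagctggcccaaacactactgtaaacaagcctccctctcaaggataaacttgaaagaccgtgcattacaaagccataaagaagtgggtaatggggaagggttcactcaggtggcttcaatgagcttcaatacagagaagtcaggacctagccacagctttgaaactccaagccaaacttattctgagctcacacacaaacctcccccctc
Plekhh1: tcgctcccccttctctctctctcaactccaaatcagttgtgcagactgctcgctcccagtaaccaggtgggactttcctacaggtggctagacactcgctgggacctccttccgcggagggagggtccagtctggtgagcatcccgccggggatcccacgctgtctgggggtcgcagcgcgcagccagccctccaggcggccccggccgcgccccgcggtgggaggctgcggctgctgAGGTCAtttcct
Of the 11 windows, the one of Plekhh1 held AGGTCA, on the plus strand with its first base at position -12 from the start, and none held either longer motif. Among all 32851 promoter windows of the same length, 14.0% held AGGTCA, 4.08% AAGGTCA and 1.14% TNAAGGTCA. These counts describe letters in short windows and say nothing about binding of a receptor at these genes.

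Nuclei were grouped by markers. From 33000 barcodes, 25606 nuclei were kept (1810 to 3708 per library). Dropped were 5897 barcodes below 500 UMIs, 464 that KO P10 library 2 had in common with KO P10 library 1, and 1033 doublet candidates. Cardiomyocyte-like nuclei numbered 10184 (721 to 1451 per library, 766332 to 1746172 UMIs), fibroblast-like 4280, endothelial-like 2061 and endocardial-like 1511. Mitochondrial transcripts made up 7.13% to 14.7% of all UMIs in KO P10, 8.56% to 40.8% in control P10 and 0.888% to 2.61% in control P6 libraries, which held 2608067 to 5769630 UMIs each. In cardiomyocyte-like nuclei the targeted genes were lower in every KO library than in any control P10 library. Esrra had 11.6, 24.6 and 20.6 CPM (UMIs of the gene scaled to a common library total with TMM factors) at KO P10, against 114, 101 and 73.7 at control P10. Esrrg had 871, 680.0 and 784 CPM, against 2229.7, 1312 and 1706. At control P6 Esrrg had 640, 857 and 482 CPM, which overlapped KO P10. The groups sat largely in clusters of their own among cardiomyocyte-like nuclei: 70.2% of those of KO P10 were in cluster 5, 83.4% of those of control P10 in cluster 2 and 83.4% of those of control P6 in cluster 1. KO P10 library 1 stood apart, with 469 of its 804 cardiomyocyte-like nuclei in cluster 12. RNA quality and RNA of other cells also moved with the groups: in cardiomyocyte-like nuclei fibroblast markers summed to 2439.7, 1638 and 811 CPM on average at KO P10, control P10 and control P6, hemoglobin genes to 5279, 1591 and 1527, and ribosomal protein genes to 8204, 2980.1 and 7002, while the 10 cardiomyocyte markers summed to 57815, 54471 and 48859. The part of these in the results below was not tested. Sex was not recorded. KO P10 library 1, control P10 library 1 and all control P6 libraries carried Xist RNA (1934 to 8297 UMIs), and the other P10 libraries carried Y-linked RNA (1492 to 1975 UMIs). Library 1 of each P10 group thus came from other mice than libraries 2 and 3 of that group. Whether libraries 2 and 3, or the control P6 libraries, came from different mice cannot be told this way.

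The membrane proteins Itgb6 and Lrtm1 had lower levels in all KO P10 libraries than in any control library. In cardiomyocyte-like nuclei, Itgb6 had 34.9, 9.69 and 27.2 CPM in KO P10 libraries 1 to 3, against 338, 194 and 355 CPM in control P10 libraries and 112, 79.9 and 76.8 CPM in control P6 libraries. Every KO library thus lay below every control of either age, and the control P10 libraries lay above the control P6 ones. Lrtm1 had 3.58, 6.71 and 7.51 CPM at KO P10, which rest on 21 UMIs in all, against 88.5, 88.9 and 171 CPM in control P10 and 96.0, 20.6 and 45.6 CPM at control P6. The KO libraries were again the lowest of all, but the control libraries of the 2 ages overlapped, with control P6 library 1 above control P10 libraries 1 and 2. The log2 fold change of KO P10 against control P10 was -3.64 ± 0.38 (SE) for Itgb6 and -4.28 ± 0.53 for Lrtm1, or 12.5-fold and 19.4-fold lower levels.

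The signalling regulators Rgs7 and Rap1gap2 were both low at KO P10 but differed at control P6. Rgs7 had 46.5, 7.46 and 34.7 CPM at KO P10, against 254, 121 and 212 CPM in control P10 and 17.2, 32.5 and 20.5 CPM at control P6. Its KO libraries therefore overlapped those of the younger controls, and control P10 stood alone as high. Rap1gap2 had 25.04, 8.95 and 10.3 CPM at KO P10, against 105, 76.6 and 104 CPM in control P10 and 79.8, 53.7 and 60.8 CPM at control P6. Here both control ages were high, with overlapping libraries, and all KO libraries lay below them. The log2 fold change of KO P10 against control P10 was -2.74 ± 0.44 for Rgs7 and -2.69 ± 0.34 for Rap1gap2.

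Pdzrn4, the ubiquitin ligase family member, was the most abundant of the 7 genes in CPM at P10 and the least reduced. It had 293, 219.9 and 360.3 CPM at KO P10, against 975, 691 and 745 CPM in control P10 and 50.5, 84.2 and 63.9 CPM at control P6. The KO libraries lay between the 2 control ages without overlapping either, and the log2 fold change against control P10 was -1.46 ± 0.27, a 2.76-fold lower level. Wdr72 had 3.58, 5.22 and 10.3 CPM at KO P10, against 156, 79.4 and 115 CPM in control P10 and 70.7, 60.5 and 27.4 CPM at control P6. Plekhh1 had 11.6, 2.24 and 3.75 CPM at KO P10, against 88.5, 63.2 and 68.1 CPM in control P10 and 78.8, 49.9 and 43.3 CPM at control P6. For both genes the KO libraries were the lowest of all 9, from 22 UMIs of Wdr72 and 20 of Plekhh1 in all, and the log2 fold changes against control P10 were -4.17 ± 0.43 and -3.63 ± 0.42. Without KO P10 library 1, the library that stood apart, the differences ranged from -4.58 for Plekhh1 to -1.47 for Pdzrn4, with -3.29 for Rap1gap2, and with the barcodes shared by KO P10 libraries 1 and 2 left out of both, from -4.37 for Lrtm1 to -1.49 for Pdzrn4.

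**Figure D1:**
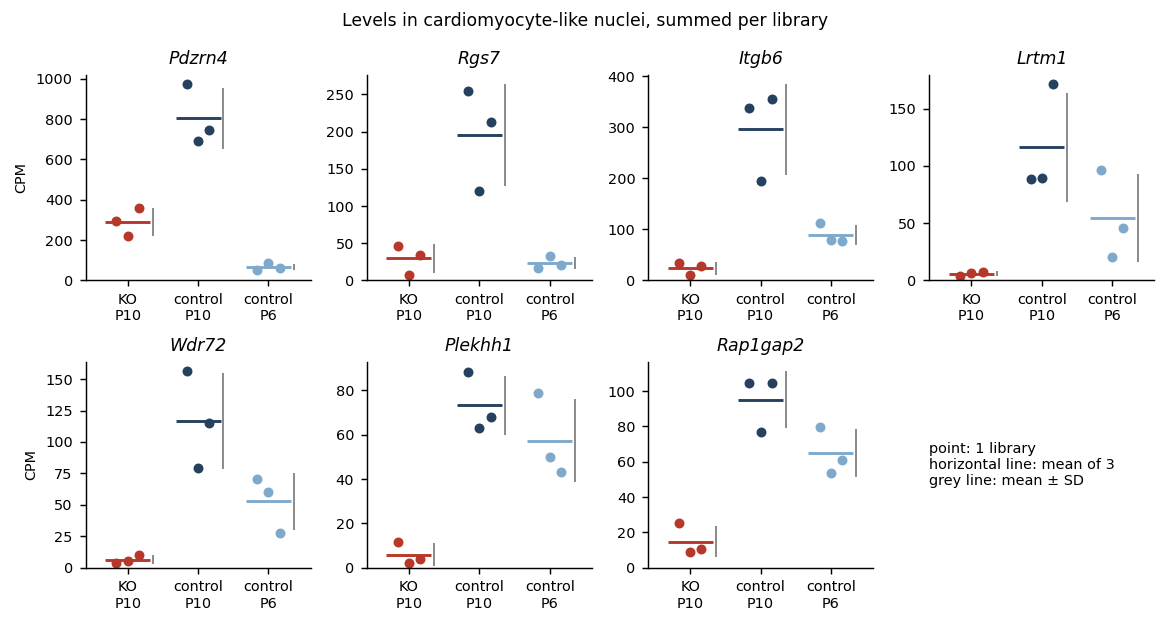
Levels of the 7 genes in cardiomyocyte-like nuclei, in CPM on linear axes from 0, for KO P10, control P10 and control P6 (points are libraries, horizontal lines the mean of 3, grey lines the mean ± SD). Rgs7 stands high in control P10 alone, with 196 ± 68.2 CPM, and Pdzrn4 is highest there with 804 ± 151 CPM and has 291 ± 70.2 CPM in KO P10. Plekhh1 and Rap1gap2 overlap between the control ages. They have 57.4 ± 18.9 and 64.8 ± 13.5 CPM at control P6, against 73.3 ± 13.4 and 95.2 ± 16.1 CPM at control P10.

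All 7 genes were below the threshold of an adjusted p of 0.05 in KO P10 against control P10, among 10867 genes tested, where 6.25% of all genes were called lower. In all 7 every KO library lay below every control P10 library, as it did for 14.9% of all genes. The genes were picked for this difference, so nothing is read from these counts. Ordered from the most negative fold change of the 10867 genes, Lrtm1 was number 7, Wdr72 9, Itgb6 16, Plekhh1 17, Rgs7 43, Rap1gap2 46 and Pdzrn4 313. The values above can be read within the libraries with Xist RNA, 1 in each P10 group, and within those with Y-linked RNA, and the part of sex was not tested.

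The name under which these genes were grouped calls them maturing. The control P10 libraries are those used to pick the genes, so the comparison of the control ages is not independent of the choice and is no support for that name. The level in cardiomyocyte-like nuclei was higher in control P10 than in control P6 for Pdzrn4 by 3.59 ± 0.29 on the log2 scale (12.0-fold), for Rgs7 by 3.02 ± 0.45 (8.10-fold), for Itgb6 by 1.72 ± 0.33 (3.30-fold) and for Wdr72 by 1.12 ± 0.34 (2.18-fold). These 4 passed the threshold, against a background of 8.1% of genes called higher, and in the same 4 all control P10 libraries lay above all control P6 libraries, against 17.8% of all genes. Lrtm1 (1.16 ± 0.40), Rap1gap2 (0.56 ± 0.29) and Plekhh1 (0.35 ± 0.32) did not pass, and their libraries overlapped between ages. The threshold was passed by Lrtm1 without control P6 library 1 (log2 fold change 1.88) or without control P10 library 2 (1.35), and was missed by Wdr72 without control P6 library 2 (1.25), control P6 library 3 (0.82), control P10 library 1 (0.91) or control P10 library 3 (1.14). All control P6 libraries carried Xist RNA, as did control P10 library 1 alone of its group. In that library Pdzrn4, Rgs7, Itgb6, Wdr72, Plekhh1 and Rap1gap2 stood above all control P6 libraries, and Lrtm1 did not. The same library had the highest mitochondrial share, 40.8% of UMIs, and the part of sex in the age difference was not tested.

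Set against the younger controls, the knockout nuclei did not have one pattern. Pdzrn4 was 2.12 ± 0.28 higher on the log2 scale at KO P10 than at control P6, Rgs7 differed by 0.28 ± 0.47, and Itgb6, Lrtm1, Wdr72, Plekhh1 and Rap1gap2 were lower, with log2 fold changes of -1.92 ± 0.37, -3.12 ± 0.54, -3.05 ± 0.45, -3.29 ± 0.42 and -2.13 ± 0.34. In libraries this meant 1 gene with all KO values above all control P6 values (18.1% of all genes), 5 with all below (19.4%) and 1, Rgs7, with overlap. This comparison shares the KO P10 libraries with the choice of the genes and mixes age with genotype. Plekhh1 and Rap1gap2, whose age difference in the controls did not pass the threshold, were 9.76-fold and 4.38-fold lower in KO P10 than in control P6.

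**Figure D2:**
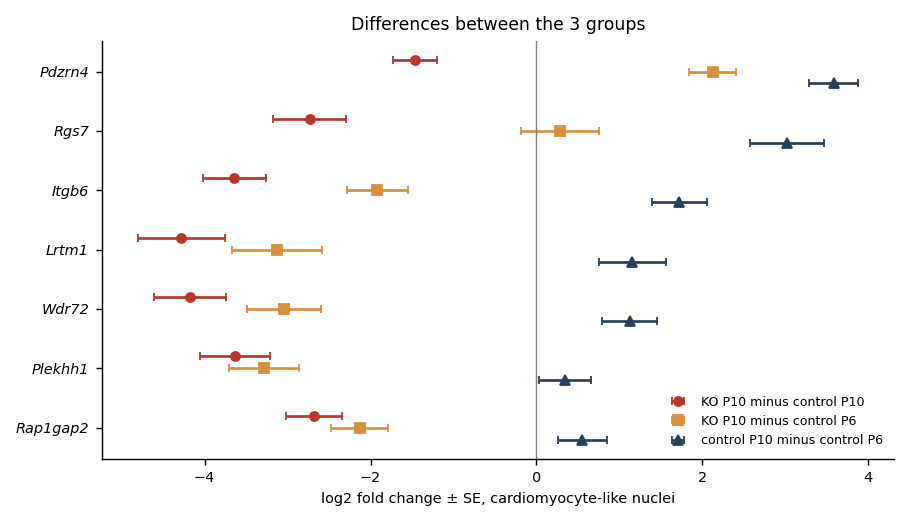
Log2 fold changes with their SE in cardiomyocyte-like nuclei for each gene, for the 3 differences between the groups named in the legend. The age difference between controls is 3.59 for Pdzrn4 and 0.35 for Plekhh1, and KO P10 minus control P6 is positive for Pdzrn4 and at or below -1.92 for the 5 lower genes.

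Levels were also compared between genes per length, and the order differed from that in CPM. Per kilobase of gene span, Lrtm1 came first at control P10 with 7.53 ± 3.09 CPM per kb (SD, n = 3), above every library of every other member. Itgb6 with 2.38 ± 0.712 and Pdzrn4 with 2.14 ± 0.402 followed and overlapped. Plekhh1 with 1.40 ± 0.255 lay below all Pdzrn4 values and overlapped Itgb6. Wdr72 (0.675 ± 0.222), Rgs7 (0.452 ± 0.157) and Rap1gap2 (0.418 ± 0.0706) were the lowest, and each overlapped the next. At KO P10 the order was led by Pdzrn4 with 0.777 ± 0.187 CPM per kb, above all KO libraries of the other 6 genes, and Wdr72 came last with 0.0368 ± 0.0203. The 15.4 kb of Lrtm1 are the shortest span and the 433 kb of Rgs7 the longest, and intronic reads grow with span, so this scale is only a rough one.

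The genes were sparse in single nuclei. With every cardiomyocyte-like nucleus thinned to 500 UMIs, so that none was left out, Pdzrn4 had a UMI in 11.7% ± 3.54 of nuclei at KO P10, against 25.8% ± 0.757 at control P10 and 3.12% ± 1.12 at control P6 (SD, n = 3). Without thinning, the shares for Pdzrn4 were 20.7%, 42.4% and 5.72%. Itgb6 had a UMI in 1.28% ± 0.831, 11.6% ± 3.32 and 4.26% ± 1.10 of thinned nuclei at KO P10, control P10 and control P6. Lrtm1 was seen in 8 of 3103 KO P10 nuclei, Plekhh1 in 10, Wdr72 in 11, Rap1gap2 in 20 and Rgs7 in 40, against 203, 117, 176, 128 and 271 of 3593 control P10 nuclei. In fibroblast-like nuclei, given for comparison, Pdzrn4 had a UMI in 1.28% ± 0.717 at KO P10 and 4.09% ± 1.15 at control P10. The part of free RNA in these shares was not tested. In KO P10 the cardiomyocyte-like share was at the fibroblast-like one for Wdr72 (0.333% and 0.326%) and below it for Rap1gap2 (0.729% and 0.797%), so no expression is read from these UMIs. Median depths were 792 to 1084 UMIs per library in cardiomyocyte-like and 639 to 844 in fibroblast-like nuclei.

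**Figure D3:**
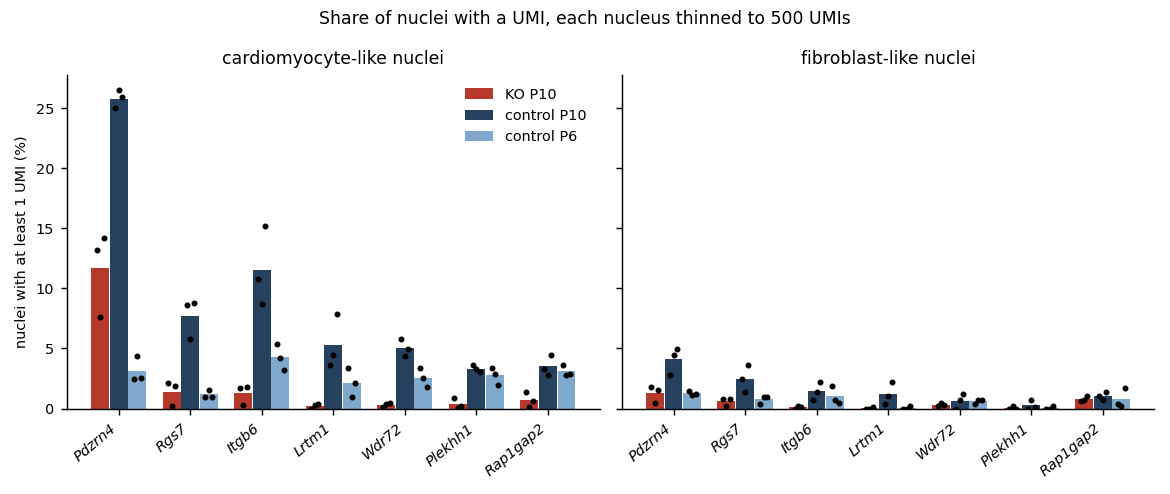
Share of nuclei with at least 1 UMI of each gene after thinning each nucleus to 500 UMIs, in cardiomyocyte-like nuclei (left) and fibroblast-like nuclei (right); bars are means of 3 libraries and points are libraries. Pdzrn4 was seen in 11.7% of cardiomyocyte-like nuclei at KO P10, against 25.8% in control P10, and in fibroblast-like nuclei no gene exceeded 4.99% in any library.

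Nuclei with UMIs of several of the genes were a minority in every group. In thinned cardiomyocyte-like nuclei, 2 of the genes were seen in 0.454% at KO P10, 10.3% at control P10 and 1.36% at control P6. In the same order, 3 or more were seen in 0.0627%, 1.84% and 0.0630%. None of the 7 was seen in 84.5% ± 5.53 of thinned cardiomyocyte-like nuclei at KO P10, 51.8% ± 4.06 at control P10 and 82.3% ± 3.01 at control P6. On average 0.160, 0.623 and 0.192 of the genes were seen per nucleus in the 3 groups.

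Values within single clusters, whose definition did not use the 7 genes, are given for some genes as a description. Cluster 2 held 135 KO P10 nuclei beside 2998 of control P10. In it Itgb6 had 5 UMIs, or 35.0 CPM without TMM factors (95% Poisson interval 11.4 to 81.6), in KO P10 nuclei and 290.0 CPM (273 to 308) in control P10 nuclei. Pdzrn4 had 454 CPM (351 to 579) in the KO nuclei of cluster 2 and 753 (724 to 782) in the control nuclei. In cluster 5, which held 2177 KO P10 and 68 control P10 nuclei, Rgs7 had 15.2 CPM (10.8 to 20.9) in the KO nuclei and 184 CPM (92.0 to 329.8) in the control nuclei. The intervals of KO P10 and control P10 overlapped for Plekhh1 in clusters 1, 5 and 8, with 4 UMIs in KO and 0 in control nuclei of cluster 5. In that cluster they overlapped also for Lrtm1, with 6.40 CPM (3.66 to 10.4) and 50.3 CPM (10.4 to 147), and for Rap1gap2, with 10.4 CPM (6.80 to 15.2) and 50.3 CPM (10.4 to 147). Cluster 12, nearly all from KO P10 library 1, had 385 CPM of Pdzrn4 (339 to 436) and 64.2 of Rgs7 (46.3 to 86.8). The intervals cover counting error only, libraries were pooled, and no test between clusters was made.

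Control P6 nuclei played no part in choosing the genes, and Pdzrn4, Itgb6, Plekhh1 and Rap1gap2 passed the filter on low counts there. A gene that passed did so through the cardiomyocyte-like class, where it was high, so how many of these were higher supports nothing. The differences of these 4 genes are therefore given without a test. Against fibroblast-like nuclei the log2 fold change was 1.49 ± 0.30 for Pdzrn4, 3.12 ± 0.34 for Itgb6, 4.19 ± 0.50 for Plekhh1 and 2.23 ± 0.34 for Rap1gap2. Against endothelial-like nuclei the 4 log2 fold changes lay between 2.40 ± 0.35 for Pdzrn4 and 3.26 ± 0.35 for Itgb6, and against endocardial-like nuclei between 2.08 ± 0.47 for Pdzrn4 and 5.26 ± 0.71 for Itgb6, which had 1 UMI there. Of all genes tested, 25% were called higher in cardiomyocyte-like than in fibroblast-like nuclei, 29.1% than in endothelial-like and 22.7% than in endocardial-like nuclei. Rgs7, Lrtm1 and Wdr72 did not pass the filter. Without the filter Rgs7 differed by 1.05 ± 0.42 from fibroblast-like nuclei (edgeR, adjusted p = 0.0758), and its level in the other classes was 70.0% to 96.6% of that in cardiomyocyte-like nuclei at P6. With nuclei classed by their own marker UMIs the differences were smaller for some. Pdzrn4 did not pass the threshold against fibroblast-like (0.69, edgeR adjusted p = 0.210) or endocardial-like nuclei (0.97, adjusted p = 0.303). Neither did Plekhh1 against endocardial-like nuclei (0.22, edgeR adjusted p = 0.836).

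The other classes also differed between genotypes at P10. The choice of genes did not use these nuclei, but they held cardiomyocyte transcripts, so their values cannot be taken as independent of that choice. The p-values of Pdzrn4 in these classes are therefore a description, and no support is read from them. In endothelial-like nuclei cardiomyocyte markers stood at 91.3% of the cardiomyocyte-like level in KO P10 and 71.5% in control P10. In endothelial-like nuclei Pdzrn4 had 59.7, 39.7 and 73.7 CPM in KO P10 libraries 1 to 3, against 398, 275 and 293 CPM in control P10 libraries and 22.8, 23.7 and 12.2 CPM in control P6 libraries. It fell by 2.38 ± 0.32 on the log2 scale in KO P10 against control P10 (edgeR, adjusted p = 0.00015). Itgb6 had 35.8, 0 and 14.7 CPM in KO P10 endothelial-like nuclei, against 219, 96.6 and 143 CPM in control P10 and 19.9, 11.8 and 12.2 CPM in control P6, with a log2 fold change of -2.93 ± 0.52. Lrtm1 had 1 UMI in KO P10 endothelial-like nuclei in all, against 72 in control P10 and 11 in control P6. In fibroblast-like nuclei Pdzrn4 had 41.6, 13.6 and 37.5 CPM at KO P10, against 103, 95.4 and 96.2 CPM in control P10 and 63.4, 29.2 and 25.6 CPM at control P6, and fell by 1.59 ± 0.37 (edgeR, adjusted p = 0.0196). Rgs7 had 22.0, 3.41 and 14.1 CPM in KO P10 fibroblast-like nuclei, against 77.1, 42.2 and 79.1 CPM in control P10 and 24.4, 17.1 and 17.1 CPM at control P6, with a log2 fold change of -2.16 ± 0.46. Itgb6 and Lrtm1 in endothelial-like nuclei and Rgs7 in fibroblast-like nuclei reached the level of the filter in control P10 libraries alone, so their differences are given without a test. The share of all genes called lower was 1.34% in endothelial-like and 1.37% in fibroblast-like nuclei. Differences of control P10 against control P6 in these classes are given without a test. Pdzrn4 rose by 3.94 ± 0.35 in endothelial-like nuclei (14.1% of genes called higher), where control P6 held 17 UMIs. In fibroblast-like nuclei Pdzrn4 rose by 1.41 ± 0.37 (6.25%). In fibroblast-like nuclei its genotype call depended on single libraries and was lost without control P10 library 1 or 3 or KO P10 library 2 or 3 (edgeR, adjusted p of 0.0517, 0.087, 0.0706 and 0.0621). With nuclei classed by their own marker UMIs Pdzrn4 was called in neither class: it had -1.03 in endothelial-like nuclei (edgeR, adjusted p = 0.428) and -1.46 in fibroblast-like nuclei (adjusted p = 0.465). In that fibroblast-like class the log2 fold change was -4.48 ± 0.81 for Lrtm1 and -3.17 ± 0.71 for Itgb6, both given without a test. Rgs7 did not pass the filter there. In the main fibroblast-like class Lrtm1 had 39 UMIs at control P10, 3 at KO P10 and 1 at control P6. With at least 1000 UMIs per nucleus, Pdzrn4 in fibroblast-like nuclei did not pass the filter, and without KO P10 library 1 Itgb6 in endothelial-like nuclei had -3.90.

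Endocardial-like nuclei gave another picture for Pdzrn4, the single member that passed the filter there. It had 151, 85.1 and 168 CPM in KO P10 libraries, against 246, 74.4 and 197 CPM in control P10 and 18.9, 28.1 and 43.1 CPM in control P6. The genotypes overlapped, with a log2 fold change of -0.29 ± 0.39 (edgeR, adjusted p = 0.852) where 0.637% of genes were called lower. The value was positive without control P10 library 1 (0.066) and with nuclei of at least 1000 UMIs (0.23). All control P10 libraries lay above the control P6 ones, which held 8 UMIs of Pdzrn4 in all. The log2 fold change with age in the controls was 2.40 ± 0.58, where 4.95% of genes were called higher. Pdzrn4 passed the filter through its higher levels at P10, so this difference is given without a test. Lrtm1 and Wdr72 had no UMI at all in KO P10 endocardial-like nuclei, against 11 and 8 in control P10 and 1 and 3 in control P6.

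Transcripts of cardiomyocytes were present in every class, so a level outside cardiomyocyte-like nuclei need not come from the cells named. The 10 cardiomyocyte markers, none at 0, summed to 53579 CPM in endothelial-like nuclei at KO P10, 40304 at control P10 and 16733 at control P6. In fibroblast-like nuclei they summed to 28821, 17689 and 8291 CPM, and in endocardial-like nuclei to 29106, 20232 and 9427 CPM. In percent of the cardiomyocyte-like level, the 7 genes together stood in endothelial-like nuclei at 26.1% in KO P10, 39.3% in control P10 and 25.01% in control P6, while Ttn, the giant sarcomere protein, stood at 70.5%, 55.7% and 22.4%. For Pdzrn4 alone the endocardial-like level was 38.9%, 17.8% and 34.5% of the cardiomyocyte-like one. Endothelial markers summed to 4984, 5242 and 13526 CPM in endothelial-like nuclei of KO P10, control P10 and control P6, against 483, 529 and 411 CPM in cardiomyocyte-like nuclei. The part of cardiomyocyte RNA in the differences of the other classes was not tested. Over all barcodes, with no classes at all, the 7 genes differed between KO P10 and control P10 by -4.22 for Lrtm1 to -1.53 for Pdzrn4, where 6.86% of genes were called lower, and 5 of them were higher in control P10 than in control P6, where 10.8% of genes were called higher. Fewer cardiomyocyte nuclei and less RNA per nucleus cannot be told apart in those sums.

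**Figure D4:**
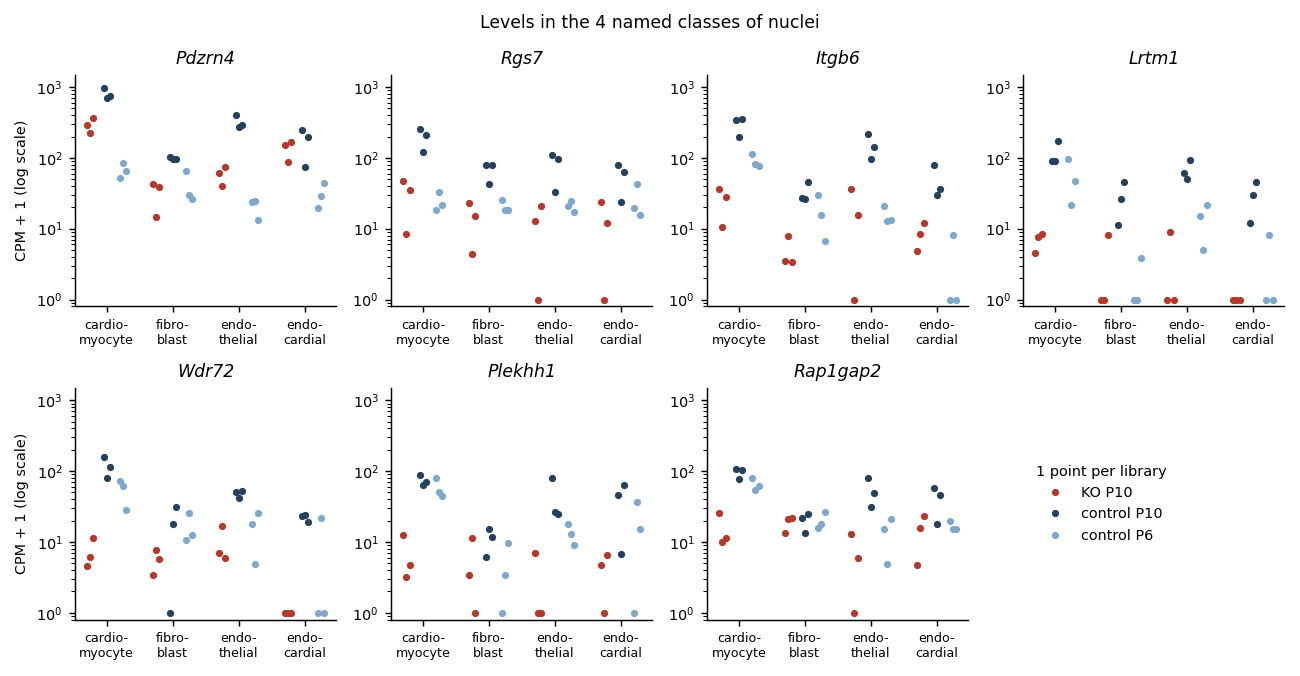
Levels of the 7 genes in the 4 named classes of nuclei, as CPM + 1 on a log axis, with 1 point per library for KO P10, control P10 and control P6. Pdzrn4 in endocardial-like nuclei overlaps between KO P10 (85.1 to 168 CPM) and control P10 (74.4 to 246 CPM), whereas in endothelial-like nuclei it does not (39.7 to 73.7 and 275 to 398 CPM).

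Genes that work with the 7 were read from lists in the same cardiomyocyte-like nuclei. The lists were chosen with earlier results of these data known, and genes were named from them by their calls. The adjusted p of the named genes, here and in the lists below, are therefore a description and no independent support. Of the 13 tested genes among partners of Rgs7 and Gi/o signalling (15 listed), 3 fell and 1 rose in KO P10 against control P10, and 4 rose and 1 fell in control P10 against control P6, where 8.1% of all genes were called higher and 8.64% lower. The closest relative, Rgs6, had 429, 115 and 159.5 CPM at KO P10, against 1519, 458 and 853 CPM in control P10 and 313, 273 and 184 CPM at control P6, and fell by 2.00 ± 0.46 on the log2 scale (edgeR, adjusted p = 0.00963). Gnb5, the obligate partner of Rgs7 and Rgs6, had 24.1, 18.6 and 19.7 CPM at KO P10, against 66.0, 44.2 and 63.8 CPM in control P10 and 45.5, 44.9 and 55.5 CPM at control P6. It fell by 1.46 ± 0.26 (edgeR, adjusted p = 0.00214) and was singled out after its values were seen. Kcnj3, a subunit of the potassium channel that Gi/o proteins open, had 48.3, 17.1 and 11.3 CPM at KO P10, against 130.3, 55.4 and 153 CPM at control P10, and fell by 2.13 ± 0.45 (edgeR, adjusted p = 0.00616). Chrm2, the muscarinic receptor of heart muscle, had 975, 1324 and 779 CPM at KO P10, against 3324, 1325 and 1381 CPM in control P10 and 664, 448 and 279 CPM at control P6. It rose by 2.11 ± 0.40 with age in the controls (edgeR, adjusted p = 0.00289), and its genotype difference of -0.97 ± 0.39 did not pass (edgeR, adjusted p = 0.109). Rgs11, another relative, was the gene that rose in KO P10, by 1.59 ± 0.39 (edgeR, adjusted p = 0.0136). Without KO P10 library 3 Rgs6 missed the threshold (adjusted p = 0.053), and without control P10 library 3 so did Rgs11 (0.077).

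Around Itgb6, genes of latent TGF-β and its integrins moved in both directions. Of 13 tested genes (16 listed), 3 rose and 1 fell in KO P10, with a median log2 fold change of 0.36 against 0.01 for all genes, and 1 rose with age in the controls. Tgfb3, a ligand, had 13.4, 57.4 and 38.5 CPM at KO P10, against 4.83, 7.27 and 6.75 CPM at control P10, and rose by 2.46 ± 0.50 (edgeR, adjusted p = 0.0049). Tgfb2 rose by 1.15 ± 0.29 (edgeR, adjusted p = 0.016) and Itgb1, the common β1 subunit, by 0.83 ± 0.24 (edgeR, adjusted p = 0.029). Both calls were lost without any of several single libraries, Itgb1 in 5 of 6 cases and Tgfb2 in 4 of 6. Ltbp1, which holds latent TGF-β in the matrix, fell by 1.54 ± 0.40 (edgeR, adjusted p = 0.0196), and not without KO P10 library 3 (0.093) or control P10 library 1 (0.090). Fibroblast markers, of which none of 9 was at 0, summed to 1172 to 3487 CPM in these nuclei at KO P10, against 1383 to 1771 CPM at control P10, and their part in these changes was not tested.

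In the Rap1 cycle, 3 of 15 tested genes (18 listed) fell in KO P10. Rap1gap, the relative of Rap1gap2, had 7.15, 4.47 and 5.63 CPM at KO P10, against 9.65, 25.2 and 27.6 CPM in control P10 and 50.5, 64.3 and 103 CPM at control P6. It fell by 1.96 ± 0.44 with genotype (edgeR, adjusted p = 0.00844; 0.053 without control P10 library 3) and by 1.70 ± 0.33 with age (edgeR, adjusted p = 0.0034), the second of which was lost with nuclei classed by their own marker UMIs (-0.48 ± 0.47, edgeR adjusted p = 0.601). Rapgef2, an exchange factor that switches Rap1 on, fell by 1.44 ± 0.34 in KO P10 (edgeR, adjusted p = 0.0123), and Sipa1l3, another GTPase activator, by 1.45 ± 0.37 (edgeR, adjusted p = 0.0164). The first was lost without KO P10 library 3 (0.058) or control P10 library 1 (0.052), and Sipa1l3 without KO P10 library 2 (0.063) or control P10 library 3 (0.086). Among 8 tested relatives of the members (10 listed), Rgs6 and Rap1gap were the 2 that fell in KO P10. With age in the controls 5 rose and 1 fell.

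Of the 6 receptors and coactivators, all tested, 3 fell in KO P10. These were Esrra (-2.31 ± 0.30, edgeR adjusted p = 0.000202), Esrrg (-1.17 ± 0.29, edgeR adjusted p = 0.015) and Ppara, the fatty acid receptor, which had 71.5, 115 and 138 CPM at KO P10, against 1142, 475 and 675 CPM in control P10 and 526, 251 and 229 CPM at control P6 (-2.82 ± 0.39, edgeR adjusted p = 0.000389). Esrra and Esrrg are the targeted genes. For Esrra every KO P10 library lay below every control of either age, which checks the labels. For Esrrg the KO P10 libraries overlapped those of control P6 (640, 857 and 482 CPM), so its level checks them only against control P10. The Esrrg call was lost without KO P10 library 2 (0.0505), KO P10 library 3 (0.062) or control P10 library 3 (0.060). The background for these lists was 6.25% of genes called lower and 6.88% called higher in KO P10. The median log2 fold change of KO P10 against control P10 was -0.12 for the Rgs7 partners, -0.16 for the Rap1 cycle, -0.03 for the relatives and -0.89 for the receptors and coactivators, against 0.01 for all genes. With nuclei classed by their own marker UMIs several calls between KO P10 and control P10 were lost: edgeR gave adjusted p of 0.0578 for Tgfb3, 0.0696 for Tgfb2, 0.348 for Itgb1, 0.0602 for Ltbp1, 0.157 for Rapgef2, 0.300 for Sipa1l3 and 0.106 for Esrrg, and Rgs11 did not pass the filter. The age calls of Kcnj3, Ltbp1, Rapgef2, Rapgef5, Lnx1 and Ppara were lost there as well (edgeR, adjusted p of 0.0670 to 0.291). All of these age calls, and those of Rgs6, Rgs11 and Lnx2, were also lost when some single libraries were left out. Those of Chrm2, Rap1gap and Esrrg were kept when single libraries were left out. With age in the controls the medians were 0.55, 0.53, 0.94 and 0.81 in the same order of lists, and 0.32 for the genes around Itgb6, against -0.05 for all genes.

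**Figure D5:**
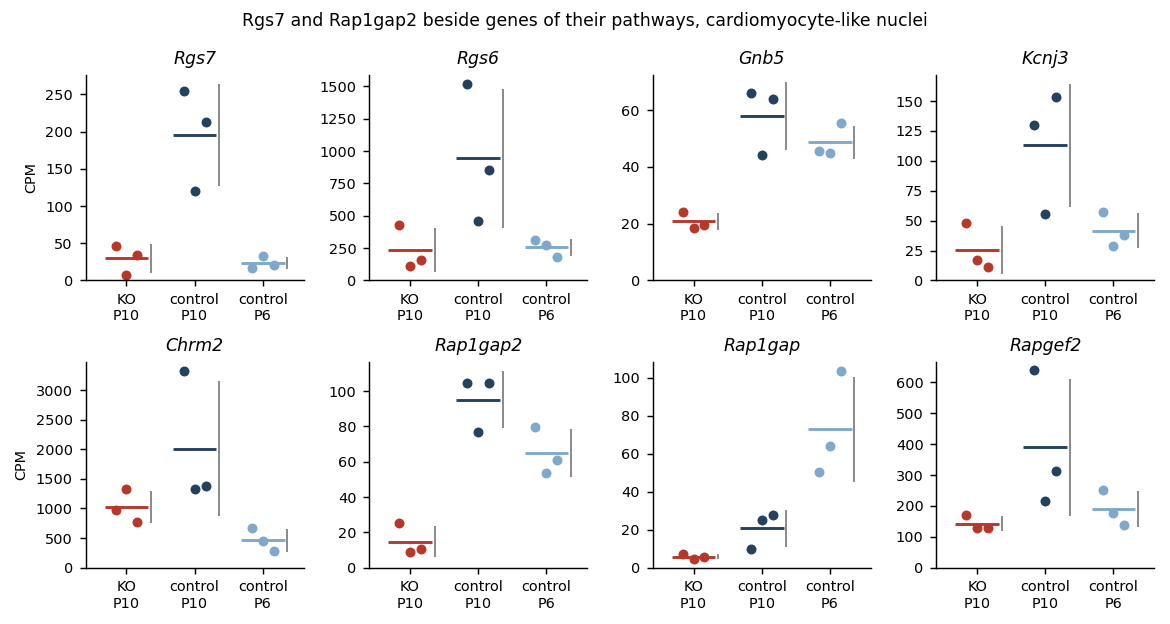
Levels in cardiomyocyte-like nuclei, in CPM from 0, of Rgs7 and Rap1gap2 and of genes from their pathways, for KO P10, control P10 and control P6 (points are libraries, coloured lines the means of 3, grey lines the mean ± SD). Gnb5 and Rgs6 lie low in KO P10 as Rgs7 does, and Rap1gap is highest at control P6, at 50.5 to 103 CPM.

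Across the 9 cardiomyocyte-like sums, the 21 pairs among the 7 genes had correlations of log2 CPM from 0.00147 to 0.990, with a median of 0.826. The lowest was that of Pdzrn4 with Plekhh1 and the highest that of Plekhh1 with Rap1gap2. The libraries share 3 groups, and the genes were chosen for 1 difference between them, so these values are a description. Among 6783 genes with a mean of at least 20 CPM, the profiles most like the mean of the 7 were Plekha5 (r = 0.988), Prlr (0.983), Upp2 (0.983), Macrod1 (0.977) and Klhl32 (0.974). Prlr, the prolactin receptor, averaged 3.81 CPM at KO P10, 45.3 at control P10 and 13.6 at control P6. Upp2, a uridine phosphorylase, averaged 24.8, 154 and 66.9 CPM in the same order of groups. Plekha5 averaged 105, 259 and 174 CPM and was the 1 of the 5 that also ranked among the first 5 by Spearman correlation. By gene, the most alike was Mef2c for Pdzrn4 (0.972), Ppp2r3a for Rgs7 (0.959), Macrod1 for Itgb6 (0.994), Etfa for Lrtm1 (0.990), Stard7 for Wdr72 (0.971), and Gm30382 for Plekhh1 (0.985) and for Rap1gap2 (0.996).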

How the data were processed

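The 9 libraries were single-nucleus RNA libraries made with sNucDrop-seq, in which a nucleus and a barcoded bead share a droplet, from mouse ventricles that were fresh or flash frozen. Reads were mapped with STAR 2.5.2a to mm10, per the submitters' processing notes. The deposited tables hold UMI counts per gene and barcode, exonic and intronic together as the names of the deposited files say; the annotation, strand setting and barcode selection of the authors are not given in the sources used here. Exonic and intronic counting raises the level of long genes.

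Barcodes with at least 500 UMIs were kept, and of 465 barcodes shared by KO P10 libraries 1 and 2, 464 were dropped from library 2; other pairs of libraries shared at most 12. Nuclei were clustered with scanpy 1.11.5 (2000 variable genes without the 7 members, 30 components, 15 neighbours, Leiden resolution 1.0), the nuclei above the 95th percentile of the Scrublet score of their library were removed as doublet candidates, and clusters were named from marker lists. Marker names are rebuilt here, and the naming rule was settled after the data had been seen. Counts were summed per library and class and tested with edgeR 4.0.16 (quasi-likelihood F test, TMM, filterByExpr, Benjamini-Hochberg threshold 0.05) in R 4.3.3. The standard error of a log2 fold change is its size divided by the square root of F. DESeq2 1.42.0 was an alternative. The fits were tested on simulated data with known changes. Intervals cover counting error only.

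The members and the lists were chosen with earlier results of these data known. Named beside the members were, per list, at most 4 genes called in cardiomyocyte-like nuclei with the largest fold change. Replicate numbers were not used as pairs in the main fits between groups. Correlations between same-numbered libraries were -0.17 to 0.27, which cannot exclude a pairing. At P10, library 1 carried Xist RNA and libraries 2 and 3 Y-linked RNA in both genotypes.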

Additional observations from a re-analysis of the deposited data

Results flagged for a closer look

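The difference between KO P10 and control P10 for Pdzrn4 was not the same in all classes of nuclei. It was 2.28 ± 0.40 more negative in endothelial-like than in endocardial-like nuclei on the log2 scale, that is -2.28 for the difference of the log2 fold changes (edgeR quasi-likelihood test of the interaction, adjusted p = 0.00114). The pattern was noticed in these data and then tested on them, so it stands as a hypothesis. Of 7498 genes, 25 were called in this comparison, or 0.333%. In endothelial-like nuclei all 3 KO P10 libraries lay below all control P10 libraries, and in endocardial-like nuclei they overlapped. Leaving out 1 P10 library at a time gave -2.47 to -1.81, and without control P10 library 2 the call was lost (-1.81 ± 0.41, edgeR adjusted p = 0.0547). The other 6 genes gave no call in any pair of classes, with adjusted p of at least 0.297 by edgeR. Beside this, cardiomyocyte markers in endothelial-like nuclei stood at 91.3% of the cardiomyocyte-like level in KO P10 and 71.5% in control P10, and in endocardial-like nuclei at 49.96% and 35.6%. Their part in the difference was not tested.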

How the results depend on the processing

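The genes were picked for their difference between KO P10 and control P10 cardiomyocyte-like nuclei, so their calls under the alternatives are not counted here. Between 3 and 6 of them were called higher in control P10 than in control P6. The 6 came with low-Malat1 clusters named, where 3643 of 11826 genes were called by age in either direction. In the main setting it was 4, where 1819 of 10867 genes were called. The control P10 libraries were also used to pick the genes, so nothing is read from these counts. The number of genes called in all moved with the processing. In cardiomyocyte-like nuclei 1427 genes were called by genotype and 1819 by age, against 304 and 611 with nuclei classed by their own marker UMIs, and by age 1097 with at least 1000 UMIs per nucleus and 3643 with low-Malat1 clusters named. In fibroblast-like nuclei 256 were called, against 63 at 1000 UMIs, 386 with doublet candidates kept and 16 by own markers. In endothelial-like nuclei 267 were called, against 169 at 1000 UMIs and 51 by own markers. In endocardial-like nuclei 84 were called, against 54 with DESeq2, 130 without the filter, 3 at 1000 UMIs and 34 by own markers. In control P6, 4180 genes differed between cardiomyocyte-like and fibroblast-like nuclei, against 2726 at 1000 UMIs. The causes were not tested. Leaving out 1 library gave 548 to 1355 genes by genotype and 670 to 2167 by age in cardiomyocyte-like nuclei, 58 to 380 in fibroblast-like, 43 to 321 in endothelial-like and 12 to 98 in endocardial-like nuclei, with the lowest genotype counts all without control P10 library 3. For the class differences in control P6 it gave 3309 to 4196, 3854 to 4420 and 2575 to 3421 genes. The genotype difference of Pdzrn4 in endocardial-like nuclei ranged from -0.69 to 0.066 when 1 library was left out, positive without control P10 library 1, and was 0.23 at 1000 UMIs, never past the threshold. With the replicate number as a block, 1452 genes were called by genotype and 1930 by age in cardiomyocyte-like nuclei, and Lrtm1 passed the threshold by age (1.26). With the block 306 genes were called in fibroblast-like nuclei, 391 in endothelial-like and 121 in endocardial-like nuclei. For the P6 class differences, where the library was the block, its removal gave 3468, 3961 and 3044 genes. Members with low counts gave no value where they failed the filter.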
